A study of Mus musculus with 14 samples.

Results

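Regions called as open chromatin only at the last time of a hypoxia course are described here: 4099 of the 108795 regions that hold a peak in any of 7 lists (percent called, 3.77%). They were found by merging overlapping or touching peaks of the 7 lists and keeping the regions with a peak at 72 h and no peak in another list. The study had profiled 4T1 cells, a mouse mammary tumor line, by bulk ATAC-seq, in which a transposase cuts and tags DNA that is not covered by nucleosomes. Cells had been kept at 1% oxygen for 72 h, and the lists compared with it came from cells at 1% oxygen for 6, 12, 24, 36 or 48 h and from a normoxic culture, with 2 replicates in each of the 7 groups (14 samples). All groups came from the same cultured cell line, with no difference in genotype given. The labels name the controls normoxic without an oxygen level, their treatment text repeats the protocol for 1% oxygen, and a legend in the paper puts the control culture below the oxygen of air, so normoxia is used here only as a label.

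The reads of both replicates of a group had been pooled before its peaks were called. The values below therefore have no replicate error, no test between conditions could be made, and the intervals given for shares are exact 95% binomial intervals that cover counting error only. A region missing from a list is a place where no peak passed the threshold there, which is not the same as closed chromatin. The regions were chosen by the peak calls, so the strength of their 72 h peaks is given as a description.

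Cells that run short of oxygen stabilise the hypoxia-inducible factors (HIF), which bind a short core, ACGTG or GCGTG, near genes of glucose uptake, glycolysis, pH control and mitophagy. Open regions away from gene starts are mostly enhancers. In epithelial and tumor cells many of them carry the letters TGANTCA, bound by AP-1, the dimers of Fos and Jun proteins, and smaller numbers carry TTGCNNAA, bound by C/EBP factors. CTCF, which binds a longer motif, marks insulators and loop ends.

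The sequences of 6 of the strongest regions called only at 72 h are shown because they hold the kinds of letters that are counted below. Each is the 201 bases centred on the summit, from the NCBIM37 (mm9) genome, written 5′ to 3′ and named by the gene that holds it or has the nearest start. Capitals mark matches on either strand to the 21 motifs searched. In the Zcchc2 sequence they mark a HIF core, in Mical3 a HIF core, a Snail motif (CAGGTG) and an NRF2 motif (TGACNNNGC), in Otoa 2 AP-1 matches with a C/EBP match between them, in Slc8a1 the RUNX (TGTGGTT), NF-Y (CCAAT) and composite C/EBP-ATF (TGATGNAA) letters, in Psat1 a STAT match (TTCNNNGAA) and in Csnk1g1 a TEAD match (GGAATG).

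Zcchc2, chr1:107804891-107805091, plus strand: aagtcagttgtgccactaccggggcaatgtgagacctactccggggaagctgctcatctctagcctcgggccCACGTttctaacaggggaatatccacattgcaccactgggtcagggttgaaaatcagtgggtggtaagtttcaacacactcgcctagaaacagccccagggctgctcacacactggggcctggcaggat

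Mical3, chr6:120993880-120994080, plus strand: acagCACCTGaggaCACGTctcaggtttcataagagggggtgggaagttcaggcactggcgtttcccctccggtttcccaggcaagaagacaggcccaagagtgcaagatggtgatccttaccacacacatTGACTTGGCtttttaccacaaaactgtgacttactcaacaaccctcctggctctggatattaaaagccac

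Otoa, chr7:128302015-128302215, plus strand: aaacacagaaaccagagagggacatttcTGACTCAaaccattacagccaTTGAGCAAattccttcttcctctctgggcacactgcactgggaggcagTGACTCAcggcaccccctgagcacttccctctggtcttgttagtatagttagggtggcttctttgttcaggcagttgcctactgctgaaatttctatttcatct

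Slc8a1, chr17:82298416-82298616, plus strand: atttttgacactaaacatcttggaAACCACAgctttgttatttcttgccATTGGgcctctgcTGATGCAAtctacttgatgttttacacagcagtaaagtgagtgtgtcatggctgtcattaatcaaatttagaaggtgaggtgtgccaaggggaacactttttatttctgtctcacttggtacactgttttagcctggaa

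Psat1, chr19:16010087-16010287, plus strand: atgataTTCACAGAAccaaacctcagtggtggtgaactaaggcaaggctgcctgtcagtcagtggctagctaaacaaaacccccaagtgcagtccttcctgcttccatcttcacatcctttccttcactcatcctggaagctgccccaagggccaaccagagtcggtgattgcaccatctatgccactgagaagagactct

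Csnk1g1, chr9:65798855-65799055, plus strand: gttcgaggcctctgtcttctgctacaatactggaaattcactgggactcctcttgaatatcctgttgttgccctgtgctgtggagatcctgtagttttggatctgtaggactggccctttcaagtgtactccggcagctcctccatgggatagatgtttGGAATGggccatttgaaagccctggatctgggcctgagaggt

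A match is a description of letters and no evidence that a factor was bound.

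The regions called only at 72 h were weaker and narrower than the shared peaks of the 72 h list and about as strong and wide as the regions of the other single lists. The median -log10 q was 3.49 in the 72 h only regions and 2.66 (24 h) to 3.6 (48 h) in those of the other lists, and the median width was 242 bp in the 72 h only regions and 222 to 247 bp in the others. Their -log10 q, the strength of the summit against the local background after correction, ran between 1.30 and 19.2, whereas the 59984 peaks of the 72 h list that share a region with another list had a median of 10.0. A -log10 q of 5 or more was reached by 600 regions called only at 72 h (14.6%, interval 13.6 to 15.8%, and 0.551% of all regions) and by 74.9% of the shared 72 h peaks. A -log10 q of 10 or more was reached by 26 of them, and 428 lay under 2. The median summit held 12 reads at the 72 h only regions (9 to 58) and 24 reads at shared peaks, and the median fold enrichment over local background was 3.41 (up to 7.38) at 72 h only regions and 5.40 at shared peaks. Widths ran between 200 and 792 bp for the 72 h only regions, and the median was 456 bp for shared peaks. The local background was the lowest of the whole list, 2.52 reads, at 2232 regions (54.5%), and it was above 2 times that level at 328 (8.0%), against 26.0% of shared peaks.

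**Figure D1:**
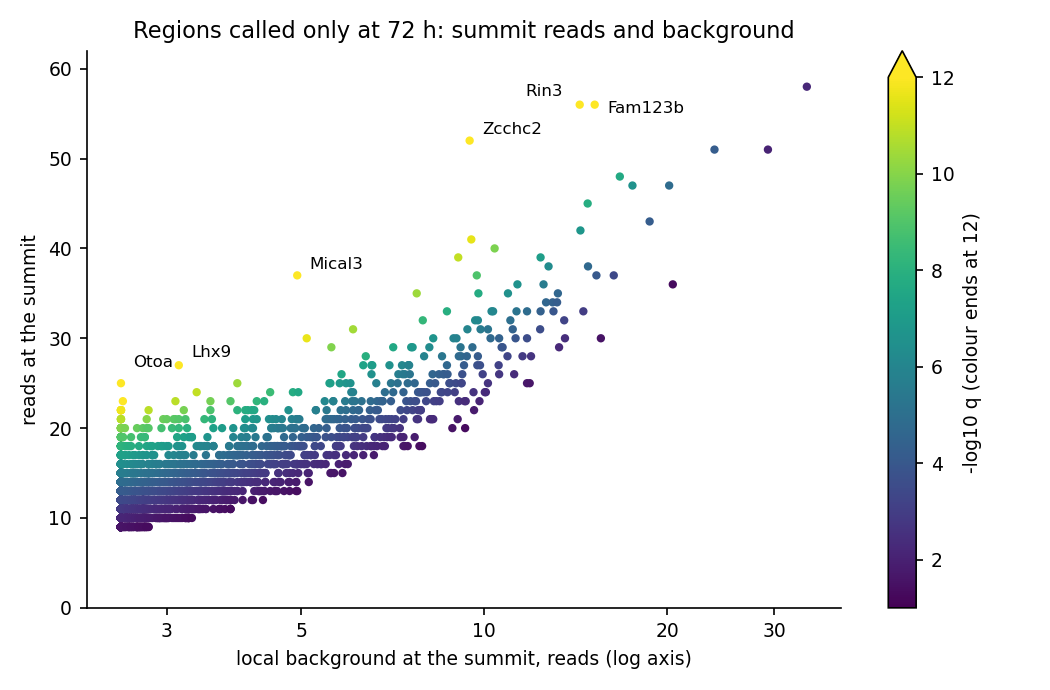
Reads at the summit against the local background in reads (log axis) for each of the 4099 regions called only at 72 h, coloured by -log10 q, with the 6 of the leading regions that hold more than 23 summit reads named. Most points lie at the left, at 2.52 background reads and near 12 summit reads, and Rin3 and Fam123b reach 56 reads over a background of 14.4 and 15.2 reads.

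The 12 strongest regions (the 10 highest -log10 q with ties) lay mostly away from gene starts. The strongest, at 19.2, was intergenic, 81992 bp from the nearest protein-coding start, that of Zcchc2, with 52 reads over a background of 9.46. The region in an intron of Mical3, a monooxygenase that acts on actin, followed at 17.8 with 37 reads over 4.92. An intron of Otoa, which encodes the inner ear protein otoancorin, held the region with the highest fold enrichment of all 4099, 7.38, at a -log10 q of 14.6 with 25 reads. A region in an exon of Lhx9, a LIM homeobox factor of limb and gonad development, had 14.3 and 27 reads over 3.14. These 4 regions stood over backgrounds between 2.52 and 9.46 reads.

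Rin3, a guanine nucleotide exchange factor for Rab5, and Fam123b, a regulator of Wnt signalling that binds APC, carried intronic regions of 14.2 and 13.2, each with 56 reads. Both stood over high backgrounds, 14.4 and 15.2 reads, and had low fold enrichments of 3.71 and 3.52. The Rin3 region was 232 bp from a region of another list. Slc8a1, the sodium-calcium exchanger of the plasma membrane, had the nearest start to an intergenic region of 12.6 with 23 reads, 249569 bp away. The other 5 regions were tied at 11.7, each with 22 reads over 2.52. These were intronic in Psat1, an enzyme of serine synthesis, and in the kinase gene Csnk1g1, and intergenic with the nearest starts those of Prdm1, a transcriptional repressor, Nedd1, which recruits gamma-tubulin to the centrosome, and Fam84b. The Prdm1 region was 57 bp from a region of another list, and the Csnk1g1 region was 39124 bp from any.

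The edge of the rule was narrow. The weakest 2 regions inside it lay near Hjurp and Kcna2, both at a 72 h -log10 q of 1.30, with 20 and 9 reads. Just outside it were regions near AI504432, at 4.17 at 72 h and 1.31 at 48 h, and near Stap1, at 2.93 at 72 h and 1.31 at 48 h. Both 48 h peaks held 9 reads.

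Each list had regions of its own. The 4099 made up 6.4% of the 64083 peaks of the 72 h list. By the same rule 2987 regions (2.75% of all) were called only in normoxia, 1478 (1.36%) in the 6 h list alone, 8579 (7.89%) in the 12 h list, 4370 (4.02%) in the 24 h list, 2993 (2.75%) in the 36 h list and 4471 (4.11%) in the 48 h list. The number for 72 h was thus within the range of the other lists, between those of 36 h and 24 h. The lists had 49006 to 81732 peaks, and their lowest backgrounds were 2.52 reads at 72 h, 1.85 to 3.25 reads at the other hypoxia times and 0.926 reads in normoxia. Raising every list's threshold to a -log10 q of 5 left 1889 regions only at 72 h, and taking the 20000 strongest peaks of every list left 1205, which held 2 of the 12 strongest regions named above.

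Regions with a peak at 72 h and in exactly 1 further list numbered 2969, and 48 h was their most frequent partner. It accounted for 1186 (39.9%), 12 h for 842 (28.4%), 36 h for 381 (12.8%), 24 h for 335 (11.3%), normoxia for 130 (4.38%) and 6 h for 95 (3.20%). Per 1000 peaks of the partner list, 48 h shared 16.0 such regions, 12 h 10.3, 36 h 6.08, 24 h 4.68, normoxia 2.16 and 6 h 1.94. The order followed the hours only in part, since 12 h came before 36 h and 24 h. Without the 48 h list the number of regions called only at 72 h would have been 5359, and without the 12 h list 4990.

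**Figure D2:**
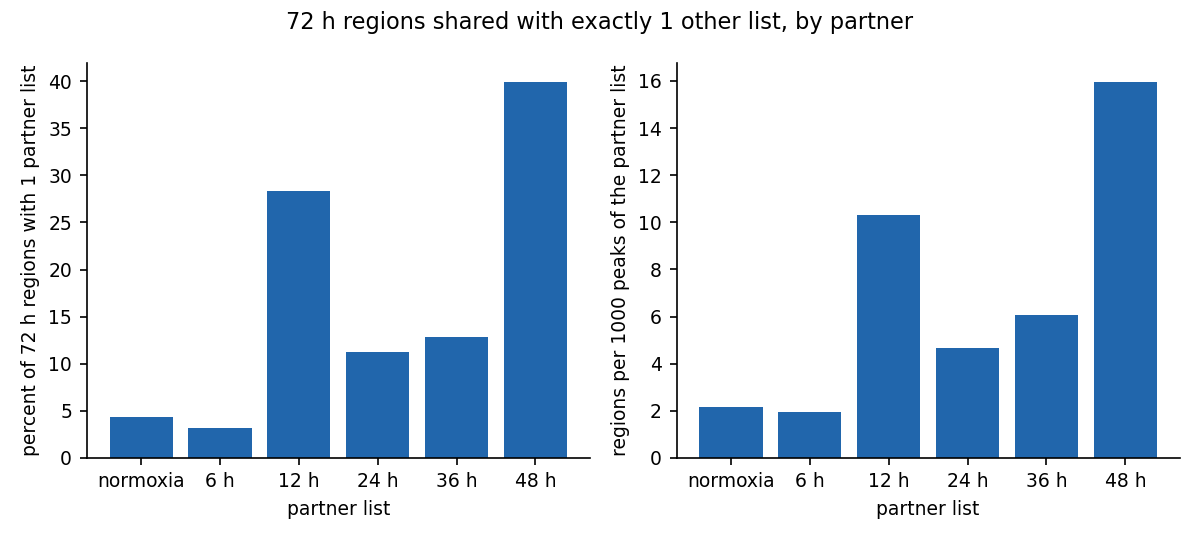
The 2969 regions called at 72 h and in exactly 1 other list, by that partner list, as a percent of the 2969 (left) and per 1000 peaks of the partner list (right). The bars of 48 h (39.9%) and 12 h (28.4%) are the highest in both panels, and those of 6 h and normoxia the lowest.

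The median distance between a 72 h only region and the nearest other 72 h only region was 157780 bp, and 233 (5.68%) had one within 10 kb. This spacing was not compared with that of the other single lists. The nearest region of another list was a median of 4873 bp away. It was within 200 bp for 293 regions (7.15%), within 1 kb for 857 (20.9%, interval 19.7 to 22.2%) and beyond 10 kb for 1211 (29.5%). Among the regions called in 1 other list only, 15.0% (24 h) to 20.9% (48 h) were within 1 kb of a region of another list. The share of all regions that were called only at 72 h was highest among the autosomes on chromosome 1, at 4.92% (interval 4.49 to 5.38%). It was lowest on chromosome 13, at 3.0%. The shares on chromosome 1 and chromosome 13 were 3.52% and 1.98% for regions called only at 36 h and 1.74% and 0.612% at 6 h. They lay closer together at 12 h (8.24% and 7.34%), 24 h (4.36% and 3.94%), 48 h (4.50% and 3.94%) and in normoxia (2.79% and 2.65%). The median 72 h background was 3.58 reads on chromosome 1 and 2.78 on chromosome 13. Whether the shares follow the background was not tested. Windows of 5 Mb with 50 or more regions had a median share of 3.52%, and 4 of the 504 held none. The highest share, picked after the values were seen, was 13 of 65 regions (20%, interval 11.1 to 31.8%) in chromosome 1 from 110 to 115 Mb. Each other list alone had 0 (6 h) to 6 (24 h) of those 65 regions. The next highest window, from 100 to 105 Mb of the same chromosome, had 11 of 66 (16.7%, interval 8.62 to 27.9%). Of those 66 regions the other lists alone had 1 (6 h) to 8 (12 h and 24 h).

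Few of these regions were at promoters, the stretches of 1 kb on each side of a protein-coding start. Promoters held 238 of the 72 h only regions (5.81%, interval 5.11 to 6.57%), introns 1677 (40.9%), exons 106 (2.59%) and intergenic DNA 2078 (50.7%). Promoters held 20.8% of the shared 72 h peaks, 12.3% of the shared 72 h peaks with a -log10 q under 5, and 13.6% of all regions. In the other lists the regions called in that list alone were at promoters in 4.35% (24 h) to 10.1% (6 h) of cases, so a low share was common to regions of a single list. Among 72 h peaks the share was 5.81% in regions of 1 list, between 6.39 and 6.71% in regions of 2 to 5 lists, 8.72% in regions of 6 lists and 28.5% in regions of all 7. The median distance to a protein-coding start was 34928 bp for the 72 h only regions and 17500 bp for shared peaks. Around the summits GC content was a median of 46.8% in 72 h only regions, 47.8% in shared 72 h peaks under 5 and 48.3% in all regions, and CpG averaged 1.01 per 100 bases in 72 h only regions, 1.76 in shared peaks under 5 and 2.02 in all regions.

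The 10 strongest of the 238 promoter regions had -log10 q values between 6.93 and 10.0. Promoters held 6.5% of the 72 h only regions with a -log10 q of 5 or more and 5.69% of those under 5. The strongest was 5 bp from the start of Crnn, which encodes cornulin of stratified epithelia, with 21 reads at 10.0. Fgd1, an exchange factor for Cdc42, had 9.91 and the adaptor gene Gab3 9.02, both on the X chromosome. Fscn1, the actin-bundling protein fascin, known from invasive cell protrusions, had 8.92 with 37 reads over a background of 9.72, 930 bp from its start. Rapgef6, an exchange factor for Rap GTPases, Nkapl and the Y-linked RNA helicase Ddx3y each had 8.15 with 18 reads. Gm10715, Arid4a, which binds the retinoblastoma protein, and Wdr26, a subunit of a ubiquitin ligase, followed at 8.07, 7.31 and 6.93. Filters on excluded regions were not applied here, and whether the Gm10715 region would pass them was not tested. The Gm10715, Gab3, Fscn1 and Wdr26 regions lay between 377 and 1754 bp from a region of another list. The Y chromosome had 2 peaks at 72 h, 6 in the 12 h list, 6 in the 24 h list, 8 in the 36 h list and none in the other 3 lists. Only 9 of the 108795 regions lay on it. Whether the cells carry a Y chromosome or the reads were misplaced was not tested, so the Ddx3y region is given as called only.

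AP-1 letters were less frequent in the 72 h only regions than in shared 72 h peaks of comparable strength. They lay within 100 bp of the summit in 710 of the 4099 (17.3%, interval 16.2 to 18.5%), in 33.3% of the shared 72 h peaks with a -log10 q under 5 and in 37.5% of all regions. Among the 3499 72 h only regions under 5 the share was 16.8%. The regions called in 1 other list only ranged between 14.2% (6 h) and 35.2% (12 h), with 17.5% at 36 h, 23.3% in normoxia, 27.9% at 48 h and 30.0% at 24 h. The value at 72 h was therefore close to those of 36 h and 6 h and below those of 48 h, its most frequent partner. Outside promoters the share was 17.4% in 72 h only regions, 36.3% in shared 72 h peaks under 5 and 41.5% in all regions. Among 72 h peaks it increased with the number of lists, 17.3% in 1 list, 26.2% in 2, 29.3% in 3, 35.1% in 4, 37.0% in 5, 41.4% in 6 and 41.4% in 7. All 21 motifs were searched on both strands. AP-1 and NRF2 letters can overlap, as can those of C/EBP and C/EBP-ATF and both HIF cores, so these shares are not independent of each other.

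**Figure D3:**
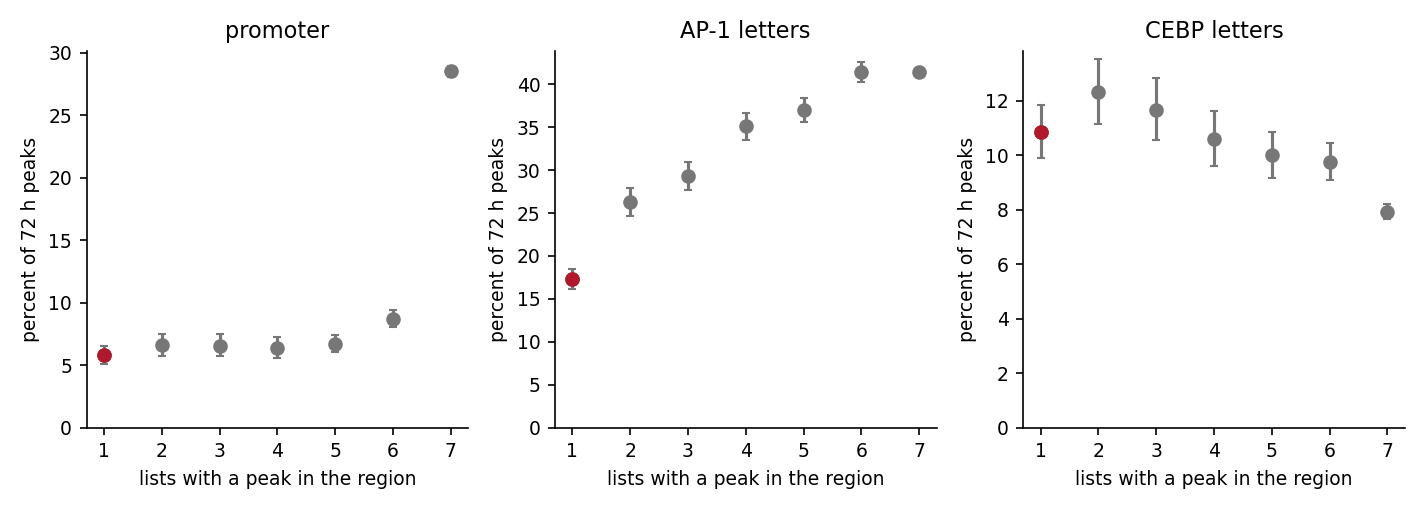
Percent of 72 h peaks at a promoter (left), with AP-1 letters (middle) and with C/EBP letters (right) within 100 bp of the summit, by the number of lists with a peak in the region; bars are exact 95% binomial intervals and the 72 h only regions are in red. The promoter share is flat from 1 to 5 lists and 28.5% at 7, the AP-1 share climbs to 41.4%, and the C/EBP share is highest in 2 lists.

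The AP-1 difference was present at each strength of peak as called. In 5 ranges of -log10 q the share was 16.6, 16.0, 17.6, 19.8 and 21.9% for the 72 h only regions, from the weakest (under 2) to the strongest (8 or more), and 24.0, 32.2, 34.6, 37.1 and 42.4% for the shared 72 h peaks. The strongest range held 105 of the 72 h only regions, with an interval of 14.4 to 31.0%. The size of the difference depended on how the lists were thresholded. With every list held to a -log10 q of 5 or more, AP-1 letters were in 25.7% of the 1889 regions only at 72 h and in 41.7% of the shared 72 h peaks. With the 20000 strongest peaks of every list, they were in 42.1% of the 1205 regions only at 72 h and in 43.2% of the shared 72 h peaks. In those 2 settings a region can have weaker peaks in other lists that fell below the threshold.

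**Figure D4:**
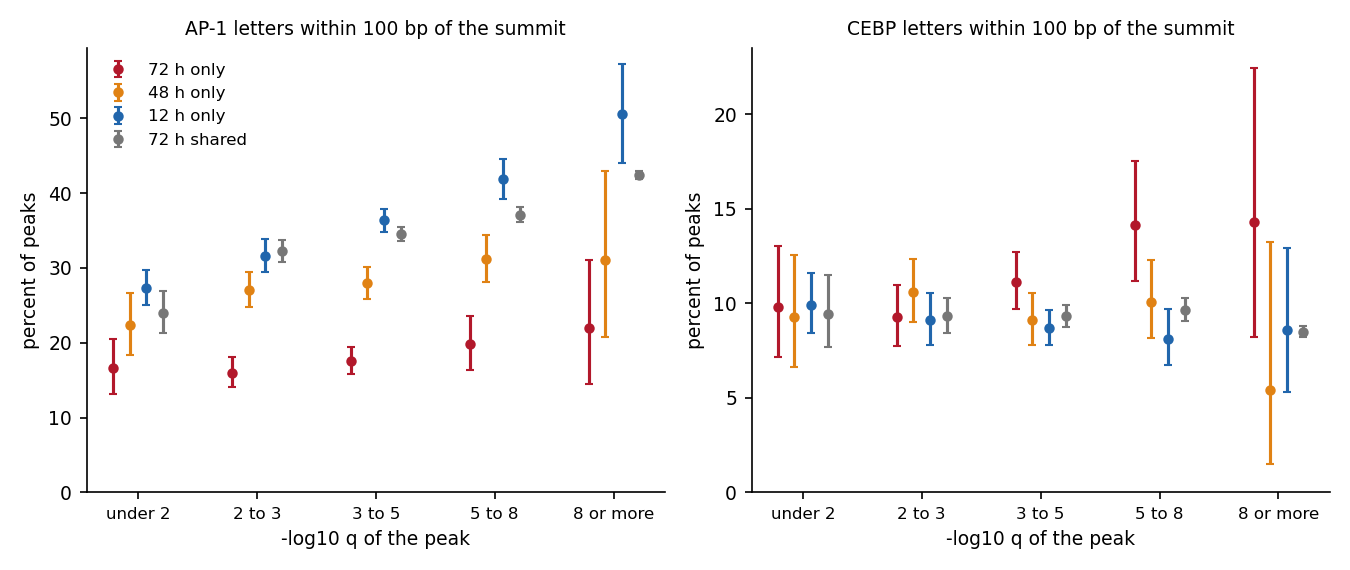
Percent of peaks with AP-1 letters (left) and C/EBP letters (right) within 100 bp of the summit in 5 ranges of -log10 q, for 72 h only, 48 h only and 12 h only regions and for 72 h peaks that share a region, with exact 95% binomial intervals. The 72 h only points are the lowest of the AP-1 panel in all 5 ranges, and in the C/EBP panel they are the highest in the ranges above 3, with intervals that overlap those of the 48 h only regions.

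C/EBP letters differed in the strong regions. They were in 444 of the 72 h only regions (10.8%, interval 9.90 to 11.8%) and in 8.73% of all regions, and the regions of 1 other list only ranged between 7.63% (normoxia) and 10.0% (36 h). In the regions under a -log10 q of 5 the share was 10.3% (interval 9.27 to 11.3%) at 72 h only, which includes the 9.32% of shared 72 h peaks under 5. Among the 600 regions with a -log10 q of 5 or more, 85 held them (14.2%, interval 11.5 to 17.2%), against 8.74% of shared 72 h peaks of that strength. Outside promoters these values were 14.3% (interval 11.5 to 17.4%) for the strong 72 h only regions and 9.87% for strong shared peaks. The C/EBP share was not highest in regions of a single list: it was 12.3% in 72 h peaks of 2 lists and 7.92% in those of all 7. RUNX letters were in 9.17% of 72 h only regions and 8.16% of all regions. The regions of 1 other list only ranged between 5.75% (6 h) and 9.27% (normoxia). Under a -log10 q of 5 RUNX letters were in 8.97% (interval 8.05 to 9.97%) of 72 h only regions and 8.09% of shared 72 h peaks. The composite C/EBP-ATF letters were in 3.81% (interval 3.24 to 4.44%) of 72 h only regions and 3.53% of all regions.

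Both HIF cores were less frequent at the 72 h only summits than in all regions, and so they were in the regions of each other single list. ACGTG was in 9.05% (interval 8.19 to 9.97%) of them, in 11.0% of shared 72 h peaks under 5 in 11.3% of all regions and in 9.24 to 10.1% of the regions of 1 other list only. GCGTG was in 8.56% of 72 h only regions, 12.5% of shared peaks under 5, 14.4% of all regions and 8.95 to 14.1% of the regions of 1 other list only. Both cores contain a CpG, and outside promoters ACGTG was in 8.88% of the 72 h only regions and in 10.3% of all regions. The GC-rich Sp and Kruppel-like letters (GGGCGG) were in 4.00% of 72 h only regions, 8.64% of shared peaks under 5, 11.3% of all regions and 3.50 to 7.31% of the regions of 1 other list only. ETS letters (CCGGAAG) were in 0.951%, 1.97%, 2.75% and 0.915 to 1.44% of these sets in the same order. The CTCF motif was in 36 of the 72 h only regions (0.878%, interval 0.616 to 1.21%), in 2.06% of the shared peaks under 5 and in 1.72% of all regions, with 0.880% (6 h) to 2.78% (normoxia) in the regions of 1 other list only. TEAD letters were in 14.9% (interval 13.8 to 16.0%) of 72 h only regions, 16.3% of shared peaks under 5, 16.5% of all regions and 10.9 to 15.7% of the regions of 1 other list only. For NF-kB, forkhead (TGTTTAC) and grainyhead-like (AACNGGTT) matches the intervals of the 72 h only regions included the values of shared peaks under 5 and of all regions. NF-kB letters were in 4.73% (interval 4.10 to 5.43%) of 72 h only regions and in 2.95 to 4.33% of the regions of 1 other list only. That interval included the 6 h (4.33%) and 48 h (4.12%) values. The forkhead (3.05%) and grainyhead-like (1.78%) shares lay within the ranges of the other lists, 2.23 to 3.46% and 1.14 to 2.34%.

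**Figure D5:**
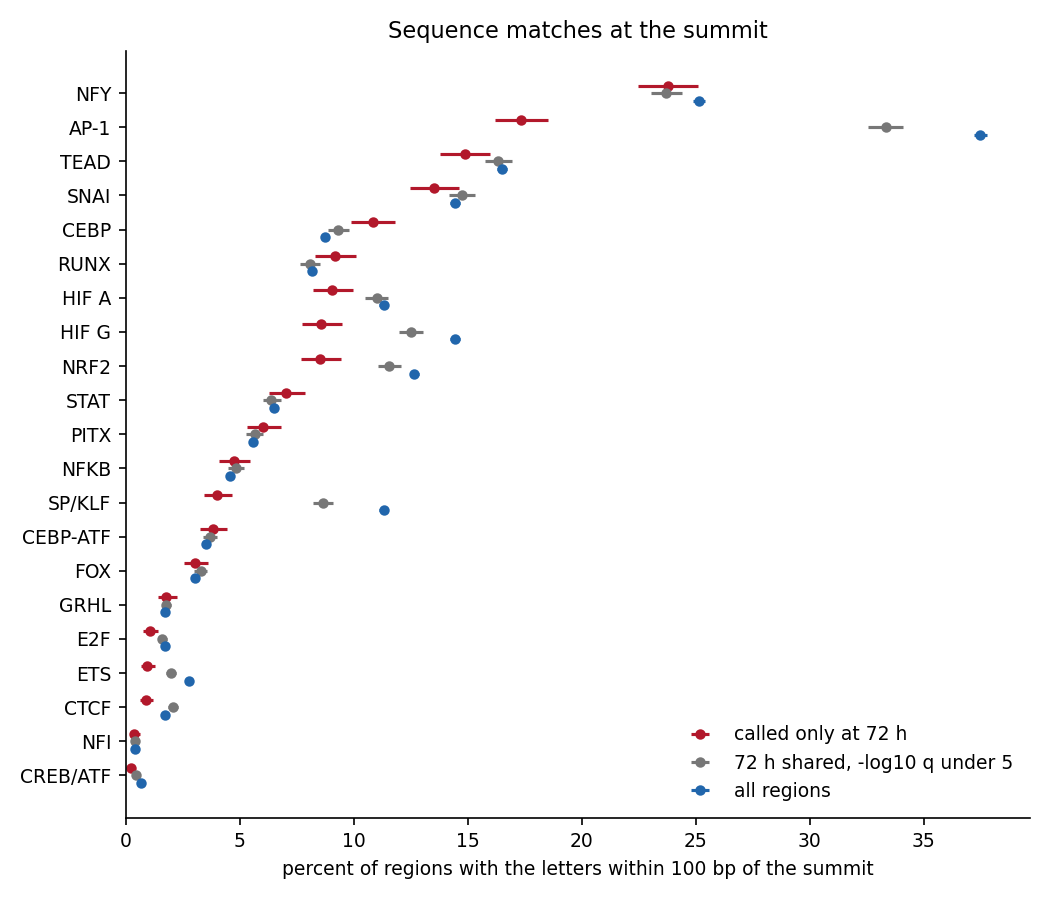
Percent of regions with each of 21 motifs within 100 bp of the summit, for regions called only at 72 h (red), shared 72 h peaks with a -log10 q under 5 (grey) and all regions (blue), with exact 95% binomial intervals. AP-1 shows the widest gap, 17.3% in 72 h only regions and 37.5% in all regions, and most of the other motifs lie within a few percentage points of each other.

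Protein-coding genes with a 72 h only region in the body or within 10 kb numbered 2286 of 22380 (percent called, 10.2%), of which 1916 had 1 and 286 had 2. The regions called only at 48 h reached 11.8% of genes by the same rule and those called only in normoxia 8.81%. Genes with such a region were long, with a median of 55500 bp against 15420.5 bp for all protein-coding genes. The 13 genes with 5 or more such regions had annotated bodies of 246978 bp or longer. Fgfr2, a fibroblast growth factor receptor, had 13 of its 172 regions only at 72 h, over an annotated body of 3009069 bp, and Gm20388 had 9 of 362 over 4434882 bp. Cntn5, a neuronal adhesion protein, and Pde4d, a cAMP phosphodiesterase, had 7 each, of 41 and 99. Another 9 genes tied at 5: the cadherins Cdh13 and Cdh4, the neuronal genes Dpp10, Dscam, Lrrc7, Negr1 and Syt1, the transcription factor gene Zfhx3, and Commd10. The largest share was that of Dpp10 with 5 of 15 regions, followed by Commd10 with 5 of 18.

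Of 208 genes found from 13 fixed lists, 31 (14.9%) had a 72 h only region, beside the 10.2% of all protein-coding genes. The list genes were longer than the rest, at a median of 18796.5 bp. Of 14 epithelial junction genes, 13 had a 72 h peak at the promoter, as did 10 of 14 mesenchymal transition genes and 15 of 16 cell cycle genes. Of immune markers 2 of 13 had one, and of markers of fibroblasts and endothelial cells 3 of 14. These counts do not tell an epithelial from a mesenchymal state, and no share over all protein-coding genes stands beside them.

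HIF target genes had a median length of 26750 bp, against 15420.5 bp for all protein-coding genes. Of the 32, 7 (21.9%) had a 72 h only region, beside 10.2% of all protein-coding genes. Of all 72 h only regions 5.81% were at promoters, and none of the 7 at these genes lay within 1 kb of the gene's own start. The strongest was 2781 bp from the start of an annotated Hk2 transcript and beyond the end of the gene body, with 23 reads at a -log10 q of 10.8. Hk2 encodes a hexokinase, the enzyme of the first step of glycolysis. An intron of Slc2a3, the glucose transporter GLUT3, followed with 19 reads at 8.47, and an intron of Kdm3a, an oxygen-dependent histone demethylase, with 15 reads at 5.28. Bnip3, a mitophagy receptor, Car12, a carbonic anhydrase, Ldha, lactate dehydrogenase, and Plod2, a collagen lysyl hydroxylase, had weaker regions of 4.15, 3.49, 3.01 and 1.46. By the same rule 6 of these 32 genes had a normoxia only region (8.81% of all protein-coding genes did), 1 a 6 h only region (4.5%), 9 a 12 h only region (19.1%), 3 a 24 h only region (9.56%), 6 a 36 h only region (8.52%) and 9 a 48 h only region (11.8%), so that counts of 6 to 9 were also found in 4 of the other lists. The Hk2 and Slc2a3 sequences are shown, with that of Nfia from the factors below, to let their letters be read. Hk2 and Slc2a3 have no HIF core in their 201 bases. Most 72 h only regions lack one too, with ACGTG in 9.05% and GCGTG in 8.56% of the 4099. The sequences of the other HIF target regions are not shown. Hk2 has no match to any of the 21 motifs, and Slc2a3 and Nfia have a RUNX match in capitals.

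Hk2, chr6:82673422-82673622, plus strand: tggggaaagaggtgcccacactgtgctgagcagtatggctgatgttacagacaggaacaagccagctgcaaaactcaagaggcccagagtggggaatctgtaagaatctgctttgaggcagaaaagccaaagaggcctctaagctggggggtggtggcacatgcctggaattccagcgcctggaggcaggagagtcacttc

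Slc2a3, chr6:122732270-122732470, plus strand: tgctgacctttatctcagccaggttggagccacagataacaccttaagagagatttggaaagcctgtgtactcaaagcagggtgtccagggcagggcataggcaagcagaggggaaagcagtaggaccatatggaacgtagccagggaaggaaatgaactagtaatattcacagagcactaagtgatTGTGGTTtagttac

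Nfia, chr4:97723394-97723594, plus strand: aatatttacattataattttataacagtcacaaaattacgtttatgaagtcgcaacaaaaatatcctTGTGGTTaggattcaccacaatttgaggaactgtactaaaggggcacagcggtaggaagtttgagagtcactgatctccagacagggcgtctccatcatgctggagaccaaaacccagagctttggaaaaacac

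Growth factor receptor genes had such regions at 7 of 19 annotated entries (36.8%), beside the 10.2% of all protein-coding genes. The 13 counted for Fgfr2 lay 11922 to 1445894 bp from its nearest annotated start. The strongest of them, at 5.70, was 1121601 bp away. They count for Fgfr2 only through its annotated body of 3009069 bp, so many are far from any start of the receptor gene. Other regions of this list were in introns of Erbb4 (4.19) and Egfr (4.17), and weaker ones lay at Fgfr1, Erbb2, Igf1r and Met. The median length of this list was 81807 bp, against 15420.5 bp for all protein-coding genes. Of its genes 9 had a 12 h only region (19.1% of all protein-coding genes did) and 7 a 48 h only region (11.8%). The transcription factors named in the study, with a median gene length of 79299 bp, had 72 h only regions at 5 of 18 (27.8%, beside the same 10.2%). The region in an intron of Nfia, a nuclear factor I gene, had 9.04 with 21 reads, that in an intron of Tead1, a partner of YAP, 4.93, and that in an intron of Nfib 3.49. Runx1 and Grhl1 had weaker ones. Among the same factors 10 had a 12 h only region (19.1% of all protein-coding genes did) and 4 a 48 h only region (11.8%).

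The remaining lists had such regions at 0 to 2 genes each, and shares such as 2 of 14 or 2 of 18 stand beside the 10.2% of all protein-coding genes. Of epithelial junction genes 2 of 14 had one: Esrp1, an epithelial splicing regulator, had 9.02 with 19 reads in an intron, 3593 bp from its start, and E-cadherin (Cdh1) had a region of 3.62 in an exon, 105 bp from its start and 250 bp from a region of another list. It was also the single gene of the 13 lists with such a region within 1 kb of its start. Of unfolded protein and amino acid stress genes 2 of 18 had one, the stress sensors Ern1 (2.32) and Atf6 (2.18). Of cytokine and chemokine genes 2 of 18 did, Lif at 4.53 and Csf1 at 3.08, and of cell cycle genes 2 of 16, Mcm2 at 2.68 and Mki67 at 1.72. Angiogenic ligands and receptors had 1 of 18, Angpt2 at 2.62, and mesenchymal transition genes 1 of 14, Tgfbr2 at 3.34. The 5 C/EBP factor genes had none. Among immune markers 1 of 13 had one, Csf1r, the receptor for Csf1, at 5.45, and none of the 14 markers of fibroblasts and endothelial cells did.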

How the data were processed

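According to their methods and to the processing notes of the submitters, the authors aligned paired ATAC-seq reads to mm9 with Bowtie2 2.1.0, removed duplicates with Picard 1.79 and mitochondrial reads, pooled the 2 replicates of a group and called peaks with MACS2 (version not given in the sources used here). The deposited columns hold the fold enrichment, a ratio of the reads at the summit to those expected locally, and -log10 p and -log10 q as the authors' peak caller wrote them. The lowest -log10 q is that of a q of 0.05, looser than the 0.01 in the methods. Filters on mitochondrial-like and excluded regions that the methods describe were not applied here. Read totals per sample were not used here; summit reads and background were solved from fold and -log10 p, to an error under 0.001, for 100% of summits.

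The strongest summit stood for each region. Genes came from GENCODE on NCBIM37, and promoters were 1 kb on each side of a protein-coding start. The 21 motifs were exact letter matches, on either strand, up to 100 bp from the summit. The text names the 10 strongest regions and the 10 strongest at promoters (with ties), the genes with the most regions, up to 3 genes per list (others by name) and the 2 regions on each side of the rule's edge. The members and the 13 gene lists were chosen with earlier results of these data known. Of 210 listed names, 3 were not in the annotation. The result of 1 list is not reported here. Steps were tested on simulated data. Alternatives were stricter -log10 q, equal list lengths, other overlaps, merging and distances, autosomes, and leaving out each list. The tools were pysam 0.24.0, scipy 1.17.1, matplotlib 3.10.9, pandas 2.3.3 and numpy 2.4.6 under Python 3.11.15.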

Additional observations from a re-analysis of the deposited data

How the results depend on the processing

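Main values were 4099 regions, 5.81% at promoters, 17.3% with AP-1 letters, 20.9% within 1 kb of a region of another list and 31 list genes. With every list held to a -log10 q of 5 or more they were 1889, 7.09%, 25.7%, 15.5% and 18, and with the 20000 strongest peaks of every list 1205, 8.63%, 42.1%, 6.47% and 20. With 72 h peaks of 5 or more against the full other lists there were 600 regions, 20.2% with AP-1 letters and 7 list genes. The promoter share was 6.72% when a peak counted as shared only at 50% of the shorter peak, 4.90% with peaks within 200 bp merged (14.9% then within 1 kb of another region), 16.5% with promoters of 5 kb and, chosen after seeing the data, 4.91% without regions over 2 times the lowest background. AP-1 letters were in 26.8% within 250 bp of the summit and in 20.4% over the whole region. Within 200 bp of another region lay 7.15%. List genes numbered 1 within 1 kb of a start and 55 within 50 kb. Leaving out 1 list gave 4202 (6 h) to 5359 (48 h) regions. A -log10 q of 2 and autosomes only moved none of the 5 values beyond 1.5 times or the interval. The distance to another region was not run under the 50% overlap. No paired analysis was possible because the replicates of each group were pooled before peaks were called. The fewest summit reads of a called peak were 9 at 72 h, 5 in normoxia and 7 to 11 in the other lists, which sets how low a region could be called.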
